A study of Mus musculus with 5 samples.

Results

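The secreted innate defence genes of the luminal epithelium were followed as 10 genes of the 24319 named in the table. The rule that picks them uses gene symbols alone, but the list was drawn up with earlier results of these data known. They fall into 4 classes. *Ltf*, *Lcn2* and *Lpo* encode milk defence proteins, *Saa1*, *Saa2* and *Saa3* encode acute phase proteins, *Pigr* and *Ccl28* serve the transport of IgA into milk, and *Cxcl1* and *Cxcl5* encode chemokines that attract neutrophils. All 10 symbols were found in the table. The measurement was bulk RNA-seq of 5 libraries of mouse mammary luminal cells, given as FPKM (the fragments mapped to a gene, scaled by transcript length and by the size of the library), which allows levels to be compared between genes per length. By genotype label, replicates 1 to 3 are wild type and replicates 4 and 5 are Brca1 knockout, with the strain Mixed and the tissue Mammary for all. The study's methods describe *Brca1* knockout mice as MMTV-Cre; Brca1 fl/fl, in which Cre is driven by the mammary tumor virus promoter and so acts mainly in the mammary epithelium, on a background of C57BL/6 and 129/Sv. The labels name luminal cells as the source, yet their extraction text speaks of tumors, and only the methods describe luminal cells as sorted from young adult females, virgin or in mid-pregnancy, by high CD24 and low CD29 after depletion of blood and endothelial cells. The stage of the mouse behind each library, the sequencing platform of each library and whether each came from a separate animal are not given in the sources used here, so p-values below measure only the spread between these libraries. The paper treats its bulk luminal cells as BRCA1-deficient, which 3 of the labels contradict, and the libraries were therefore described together and also compared by label.

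Luminal epithelial cells line the ducts and alveoli of the mammary gland, and they secrete proteins that protect the gland and the suckling young. Lactoferrin (*Ltf*) binds iron and so withholds it from bacteria, lipocalin 2 (*Lcn2*) captures the iron-carrying siderophores that bacteria release, and lactoperoxidase (*Lpo*) uses hydrogen peroxide to oxidise thiocyanate into a product that kills microbes. Serum amyloid A proteins are released in inflammation by the liver and by epithelia, and *Saa3* is the form made mainly outside the liver. The polymeric immunoglobulin receptor (*Pigr*) carries dimeric IgA across the epithelial cell, and *Ccl28* attracts the plasma cells that make that IgA. *Cxcl1* and *Cxcl5* encode ligands of the receptor CXCR2 on neutrophils. In epithelia many of these genes are known targets of NF-kB, of C/EBP factors and of STAT3, downstream of pattern recognition receptors and of cytokines such as IL-6 and IL-17.

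The libraries were not alike. Luminal markers were high in every library, with a summed level of the 8 genes (*Krt8*, *Krt18*, *Krt19*, *Epcam*, *Cd24a*, *Cdh1*, *Cldn3* and *Cldn4*) between 7282 and 11565 FPKM. Wild type replicate 3 stood apart in the mature luminal list (*Esr1*, *Pgr*, *Prlr*, *Areg*, *Foxa1*, *Cited1*), which summed to 581 FPKM there and to between 15.1 and 36.0 FPKM in the other libraries. Wild type replicate 2 held the highest sum of 9 macrophage markers, 384 FPKM against a range from 4.70 to 51.3 FPKM in the others. Depth, estimated from the values themselves and approximate, was 1, 2.06 and 4.82 in wild type replicates 1 to 3 and 1.00 and 3.43 in knockout replicates 4 and 5, relative to wild type replicate 1. Fragment numbers given below come from that estimate and speak of counting error only. *Brca1* itself stood at 1.30, 1.32 and 0.234 FPKM in wild type replicates 1, 2 and 3, against 1.20 and 1.34 FPKM in Brca1 knockout replicates 4 and 5. The knockout-labelled libraries lay inside the range of the wild type ones, and since a value over the whole gene need not show the loss of single exons, this value does not check the labels.

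*Lcn2* led the group by a wide margin. Its mean level of log2(FPKM + 1) over the 5 libraries was 11.14 ± 0.69 (SD, n = 5). By mean FPKM, at 2502, it was at rank 26 among the 24319 genes. A middle tier followed with *Ltf* at 6.67 ± 2.04, *Saa1* at 6.66 ± 1.63, *Pigr* at 6.55 ± 0.88, *Saa2* at 6.42 ± 1.66 and *Cxcl1* at 6.38 ± 0.70 (mean ± SD of the log2 level, n = 5). The lower tier held *Saa3* at 3.44 ± 1.60, *Lpo* at 1.90 ± 0.66, *Ccl28* at 1.35 ± 0.85 and *Cxcl5* at 0.72 ± 0.48 on the same scale. *Lcn2* was above *Ltf* in 5 of 5 libraries, by 4.46 ± 1.54 (mean difference of log2 levels ± SD). Within the middle tier each neighbouring pair changed order between libraries, the gene listed first being higher in 3, 2, 3 and 3 of the 5, so these 5 genes were not separated. *Cxcl1* lay above *Saa3* in 5 of 5 libraries, and *Lpo* above *Ccl28* in 5 of 5. *Saa3* with *Lpo* and *Ccl28* with *Cxcl5* kept their order in 4 of 5 libraries. The median log2 level of the 10 genes was 5.55 ± 0.79 over the 5 libraries, with a range from 4.95 to 6.93.

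**Figure D1:**
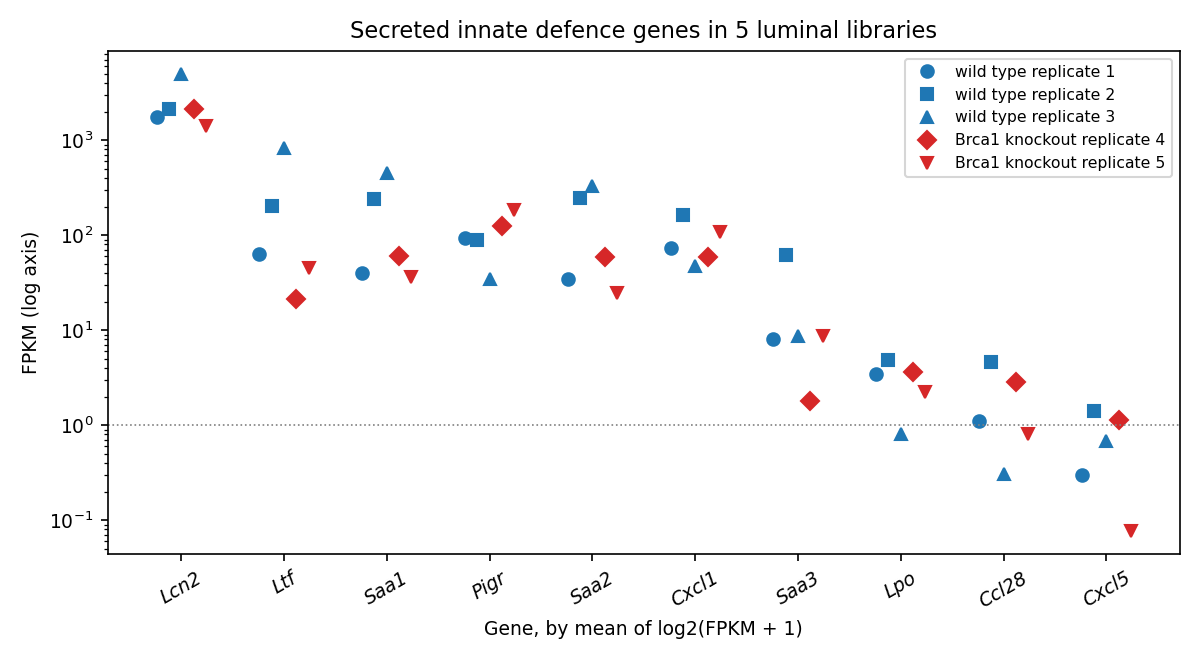
FPKM of the 10 secreted innate defence genes (log axis) in each of the 5 luminal libraries, genes ordered by mean log2 level from left to right. Each symbol is 1 library, blue for the wild type label and red for the Brca1 knockout label, and the dotted line marks 1 FPKM. *Lcn2* lies between 1422 and 5026 FPKM, while *Cxcl5* lies between 0.0766 and 1.42 FPKM.

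The milk defence genes came first. *Lcn2* (ENSMUSG00000026822, chromosome 2 of GRCm38/mm10, 32384633 to 32388252, minus strand) measured 1749, 2158 and 5026 FPKM in wild type replicates 1, 2 and 3, against 2157 and 1422 FPKM in Brca1 knockout replicates 4 and 5. The highest value was that of wild type replicate 3, the other 4 libraries lay close to each other, and the groups overlapped. *Lcn2* alone made up 84.6, 67.9, 74.7, 86.6 and 77.5% of the summed FPKM of the 10 genes in replicates 1 to 5. *Ltf* (ENSMUSG00000032496, chromosome 9, 111019271 to 111042767, plus strand) measured 64.0, 203 and 825 FPKM in the wild type replicates, against 21.2 and 44.7 FPKM in the knockout replicates. Both knockout-labelled libraries lay below all 3 wild type ones, and the wild type values themselves spread widely, with replicate 3 at the top. Among the 10 genes *Ltf* had the widest range, its highest value being 38.9 times its lowest, but without wild type replicate 3 that ratio was 9.57 and *Saa3*, at 33.9, had the widest range. The ratio of *Lcn2* to *Ltf* in FPKM was accordingly uneven, at 27.3, 10.6, 6.09, 102 and 31.8 in replicates 1 to 5.

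*Lpo* (ENSMUSG00000009356, chromosome 11, 87806428 to 87828289, minus strand) measured 3.47, 4.92 and 0.800 FPKM in the wild type replicates, against 3.65 and 2.27 FPKM in the knockout replicates. Here wild type replicate 3, the library with the highest *Ltf* and *Lcn2*, was the lowest, and the groups overlapped. The partners that supply the substrates of lactoperoxidase were taken from a list of 15 genes, of which 6 averaged 1 FPKM or more. *Xdh*, xanthine dehydrogenase, whose oxidase form can make hydrogen peroxide and which also belongs to the milk fat globule, lay between 128 and 168 FPKM. *Slc5a5*, the sodium-dependent carrier of iodide that also takes up thiocyanate, was at 3.35, 4.52 and 234 FPKM in the wild type replicates and at 1.69 and 2.59 FPKM in the knockout replicates. The library with the least *Lpo* therefore had the most *Slc5a5*. *Ano1*, a chloride channel through which thiocyanate can pass, ranged from 88.0 to 161 FPKM. Of the peroxide-making dual oxidases, *Duox1* was between 1.30 and 3.05 FPKM and *Duox2* did not exceed 0.213 FPKM. The related peroxidase of neutrophils, *Mpo*, did not exceed 0.0634 FPKM in any library, and its transcript shares no 50-base stretch with that of *Lpo*.

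Since *Ltf* and *Lcn2* are also made by neutrophils, 12 neutrophil markers were read beside them, of which 11 were in the table. *Elane*, neutrophil elastase, was listed at 0 FPKM in every library, and *Camp*, the cathelicidin, was listed at 0 FPKM in every library but wild type replicate 2, where it was at 0.173 FPKM. *Ngp*, a granule protein stored with lactoferrin, was at 0 FPKM in wild type replicate 1 and in both knockout replicates, and at 0.296 and 0.0635 FPKM in wild type replicates 2 and 3. *S100a8*, which is also made by epithelia, was at 24.6, 147 and 43.9 FPKM in the wild type replicates and at 39.8 and 16.4 FPKM in the knockout replicates. Its partner *S100a9* was at 6.14 FPKM in wild type replicate 2 and at or below 0.280 FPKM elsewhere. *Cxcr2*, also on the list, was between 1.11 and 2.38 FPKM over the libraries. The values of *Elane*, *Camp* and *Ngp* therefore do not show that neutrophil transcripts were absent. The neutrophil list summed to 26.0, 159 and 46.7 FPKM in the wild type replicates and to 41.4 and 18.3 FPKM in the knockout replicates. Most of each sum was *S100a8*, so the sum says little about the other markers. In wild type replicate 2, 5 genes of the list were at 1 FPKM or more, against 2 in each other library. The list was highest in wild type replicate 2, and *Ltf* and *Lcn2* were highest in wild type replicate 3. The share of neutrophils in the *Ltf* and *Lcn2* values was not tested.

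The acute phase genes lie near each other. *Saa3* (ENSMUSG00000040026, chromosome 7, 46711998 to 46715700, minus strand), *Saa1* (ENSMUSG00000074115, 46740497 to 46742980, minus strand) and *Saa2* (ENSMUSG00000057465, 46751790 to 46754313, plus strand) lie in this order, with 24796 bases between the first pair and 8809 bases between the second. Other genes in these gaps were not looked for. The genes *Saa1* and *Saa2* thus point away from each other. Their longest protein-coding transcripts, of 609 and 652 bases, were 87.7% identical. Of the windows of this *Saa1* transcript, 13.2% of those of 50 bases but 0 of those of 100 bases recurred in any annotated transcript of *Saa2*. How reads that match both genes were divided is not given in the sources used here, so the split between *Saa1* and *Saa2* is uncertain. Of the 50-base windows of *Saa1*, 1.61% recurred in any annotated transcript of *Saa3*, whose longest protein-coding one has 2200 bases.

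The promoter sequences of *Saa1*, *Saa2* and *Saa3* are shown, with those of *Ltf* and *Cxcl1* as examples from the other classes. They are the 200 bases from -250 to -51 relative to the gene start in RefSeq's annotation of GRCm38.p6, read 5′ to 3′ on the strand of the gene, at chr7:46743031-46743230 (minus strand, *Saa1*), chr7:46751583-46751782 (plus strand, *Saa2*), chr7:46715727-46715926 (minus strand, *Saa3*), chr9:111019042-111019241 (plus strand, *Ltf*) and chr5:90890995-90891194 (plus strand, *Cxcl1*). Capitals mark matches to a C/EBP motif in the first 4 and to an NF-kB motif in *Cxcl1*.
Saa1: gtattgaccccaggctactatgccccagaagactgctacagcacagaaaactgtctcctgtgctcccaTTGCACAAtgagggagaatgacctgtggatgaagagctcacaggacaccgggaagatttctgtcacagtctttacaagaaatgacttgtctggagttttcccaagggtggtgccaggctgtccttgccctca
Saa2: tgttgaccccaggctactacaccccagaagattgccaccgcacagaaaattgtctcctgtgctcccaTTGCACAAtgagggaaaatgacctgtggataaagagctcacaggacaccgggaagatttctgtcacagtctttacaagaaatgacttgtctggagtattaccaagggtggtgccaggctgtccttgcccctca
Saa3: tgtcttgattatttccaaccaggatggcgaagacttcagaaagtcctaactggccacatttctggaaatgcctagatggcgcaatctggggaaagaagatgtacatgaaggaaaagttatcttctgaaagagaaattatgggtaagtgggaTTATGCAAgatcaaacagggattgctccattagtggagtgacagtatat
Ltf: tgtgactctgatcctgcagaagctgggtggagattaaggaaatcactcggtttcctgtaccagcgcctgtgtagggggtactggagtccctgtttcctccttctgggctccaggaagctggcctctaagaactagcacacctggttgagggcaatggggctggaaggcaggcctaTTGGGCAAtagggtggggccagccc
Cxcl1: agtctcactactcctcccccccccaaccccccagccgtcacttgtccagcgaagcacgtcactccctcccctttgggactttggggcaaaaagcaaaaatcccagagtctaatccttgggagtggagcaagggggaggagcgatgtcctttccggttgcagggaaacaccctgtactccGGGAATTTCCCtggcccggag

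The *Saa1* and *Saa2* windows were 94% identical, and each holds the same match, TTGCACAA, whose first base is at -182 and -183 counted from the gene start. The *Saa3* window was 56% identical to that of *Saa1* and 51.5% to that of *Saa2*, and its match, TTATGCAA, lies elsewhere, from -99. *Ltf* has TTGGGCAA from -75. The C/EBP motif was searched as TTGCNNAA on both strands and was found in 5 of the 9 genes with a promoter in the RefSeq table, *Lcn2* being the fifth, against 8.11% of all 32851 promoter windows of the same length. The 5 are not independent of each other, since *Saa1* and *Saa2* are copies. The NF-kB motif, known by that name, was found in 1 of the 9, *Cxcl1*, as 2 overlapping matches from -71 and -70, against 5.71% of all promoters. The STAT motif TTCNNNGAA was found in 0 of the 9, against 5.76% of all promoters. A match says only that these letters lie in the window. No baseline of identity between unrelated windows was computed, and a link between these sequences and the levels of the genes was not tested. The promoter of *Cxcl5* is not shown.

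*Saa1* was at 39.97, 242 and 453 FPKM in wild type replicates 1, 2 and 3, against 60.7 and 36.3 FPKM in Brca1 knockout replicates 4 and 5. *Saa2* was at 34.9, 248 and 333 FPKM in the wild type replicates and at 59.1 and 24.8 FPKM in the knockout replicates. Both were high in wild type replicates 2 and 3 and low in wild type replicate 1 and both knockout replicates, so the groups overlapped through wild type replicate 1. The ratio of *Saa1* to *Saa2* stayed between 0.973 and 1.47 while each gene ranged over 12.5 and 13.5 times. *Saa3* was at 8.10, 61.5 and 8.77 FPKM in the wild type replicates and at 1.81 and 8.65 FPKM in the knockout replicates. Only wild type replicate 2 stood high for *Saa3*, the groups overlapped, and wild type replicate 3, the highest for *Saa1*, was level with 2 other libraries. The ratio of *Saa1* to *Saa3* was therefore 51.7 in wild type replicate 3 and 33.5 in knockout replicate 4, against 4.93, 3.93 and 4.20 in replicates 1, 2 and 5. *Saa4*, the constitutive member of the family, was at or below 0.185 FPKM in every library.

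Other acute phase and complement genes were read from a list of 16, of which 10 averaged 1 FPKM or more. *C3*, the central component of complement, was the highest on average, with 346, 378 and 240 FPKM in the wild type replicates and 436 and 435 FPKM in the knockout replicates. Its groups did not overlap, the knockout-labelled libraries being higher, as for 1 of the 10 and for 17.5% of all genes tested. *Cp*, ceruloplasmin, which carries copper and oxidises iron, ranged from 83.7 to 358 FPKM, and *Lrg1*, a leucine-rich glycoprotein made in inflammation, from 6.98 to 306 FPKM. *Hp*, haptoglobin, which binds free haemoglobin, was at 237 FPKM in wild type replicate 3 and between 5.46 and 12.3 FPKM elsewhere. *Hp* was named after its values were seen. Wild type replicate 3 was the highest library for *Cp*, *Lrg1* and *Hp* as it was for *Saa1* and *Saa2*. It was the highest for 7 of these 10 genes, beside 18.5% of all genes tested. *Fgb*, fibrinogen beta chain, was at 31.5 FPKM there and at most 0.109 FPKM elsewhere, so it was among the 10 only through that library.

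The receptor side of IgA transport was well represented and its chemokine was not. *Pigr* (ENSMUSG00000026417, chromosome 1, 130826684 to 130852249, plus strand) measured 93.1, 89.5 and 34.9 FPKM in the wild type replicates, against 125 and 186 FPKM in the knockout replicates. Both knockout-labelled libraries lay above all 3 wild type ones, and wild type replicate 3 was the lowest. *Ccl28* (ENSMUSG00000074715, chromosome 13, 119623819 to 119654359, plus strand) measured 1.11, 4.67 and 0.309 FPKM in the wild type replicates, against 2.83 and 0.814 FPKM in the knockout replicates. Wild type replicates 2 and 3 were the highest and the lowest, and the knockout values lay between them. These values rest on an estimated 25.5 to 222 fragments per library. *Pigr* exceeded *Ccl28* by 84.2, 19.2, 113, 44.2 and 228 times in replicates 1 to 5.

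*Jchain*, the chain that joins IgA into the dimers *Pigr* carries, was at 0.473, 14.1 and 117 FPKM in the wild type replicates and at 1.33 and 0.452 FPKM in the knockout replicates. Its highest library was the one with the least *Pigr* and *Ccl28*. The list of lymphocyte and plasma cell markers summed to 1.48, 22.3 and 136 FPKM in the wild type replicates and to 1.80 and 1.22 FPKM in the knockout replicates. *Jchain* is part of that list and made up most of its sum in wild type replicates 2 and 3. Of the 4 members tested, wild type replicate 3 was the highest library for 3, *Jchain* included, and wild type replicate 2 for 1. The shares over all genes tested were 18.5% and 16.0%. *Cd79a*, part of the B cell receptor, was at 7.71 FPKM in wild type replicate 3 and at or below 0.665 FPKM elsewhere. It was thus among the 4 tested only through that library. The share of plasma cells in the *Jchain* values was not tested. *Tnfsf13*, the cytokine APRIL that sustains plasma cells, ranged from 14.9 to 35.1 FPKM with its lowest value in wild type replicate 3. *Ccr10*, the receptor for *Ccl28* on plasma cells, was below 1 FPKM in every library, at most 0.598 FPKM, and *Ccl25*, a further chemokine of mucosal surfaces, was between 1.48 and 2.77 FPKM.

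The neutrophil chemokines differed in level by far more than they varied. *Cxcl1* (ENSMUSG00000029380, chromosome 5, 90891241 to 90893115, plus strand) measured 73.9, 164 and 47.8 FPKM in the wild type replicates, against 58.7 and 109 FPKM in the knockout replicates. Its highest value was 3.44 times its lowest, close to the 3.53 of *Lcn2*, its extremes both carried the wild type label, and the groups overlapped. *Cxcl5* (ENSMUSG00000029371, 129616 bases before *Cxcl1* on the same chromosome, 90759360 to 90761624, plus strand) measured 0.296, 1.42 and 0.690 FPKM in the wild type replicates, against 1.12 and 0.0766 FPKM in the knockout replicates. It passed 1 FPKM in 2 of 5 libraries and rests on an estimated 2.55 to 32.3 fragments per library, so at this depth its differences between libraries carry a large counting error. *Cxcl2*, another ligand of CXCR2, was at 21.7, 160 and 20.6 FPKM in the wild type replicates and at 16.1 and 35.05 FPKM in the knockout replicates. In wild type replicate 2 *Cxcl1* and *Cxcl2* were level, with a ratio of 1.02, and elsewhere *Cxcl1* led by 2.32 to 3.65 times. *Cxcl3* peaked in the same library, at 23.6 FPKM against 0.671 to 3.50 FPKM. *Csf3*, the growth factor that releases neutrophils from the marrow, ranged from 21.6 to 81.8 FPKM, and *Csf1*, the macrophage growth factor, from 24.2 to 56.0 FPKM. The receptor *Cxcr2* was between 1.11 and 2.38 FPKM, and *Cxcr1* was listed at 0 FPKM in all 5 libraries.

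The 10 genes did not follow a single pattern over the libraries. Expressed as the difference of each log2 level from the mean of its gene, *Ltf* was at 3.02 in wild type replicate 3 and at -2.20 in knockout replicate 4. *Saa1* was at 2.17 and *Saa2* at 1.96 in wild type replicate 3, while *Pigr* was at -1.38, *Lpo* at -1.05, *Ccl28* at -0.96 and *Cxcl1* at -0.77 in that same library. Wild type replicate 3 was the highest library for *Ltf*, *Lcn2*, *Saa1* and *Saa2*, 4 of the 9 genes that averaged 1 FPKM or more, against 18.5% of all 11481 such genes. It was the lowest for *Lpo*, *Pigr*, *Ccl28* and *Cxcl1*, also 4 of 9, against 51.8% of all genes. Wild type replicate 2 was the highest for *Lpo*, *Saa3*, *Ccl28* and *Cxcl1*, 4 of 9 against 16.0% of all genes, and for *Cxcl5*.

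**Figure D2:**
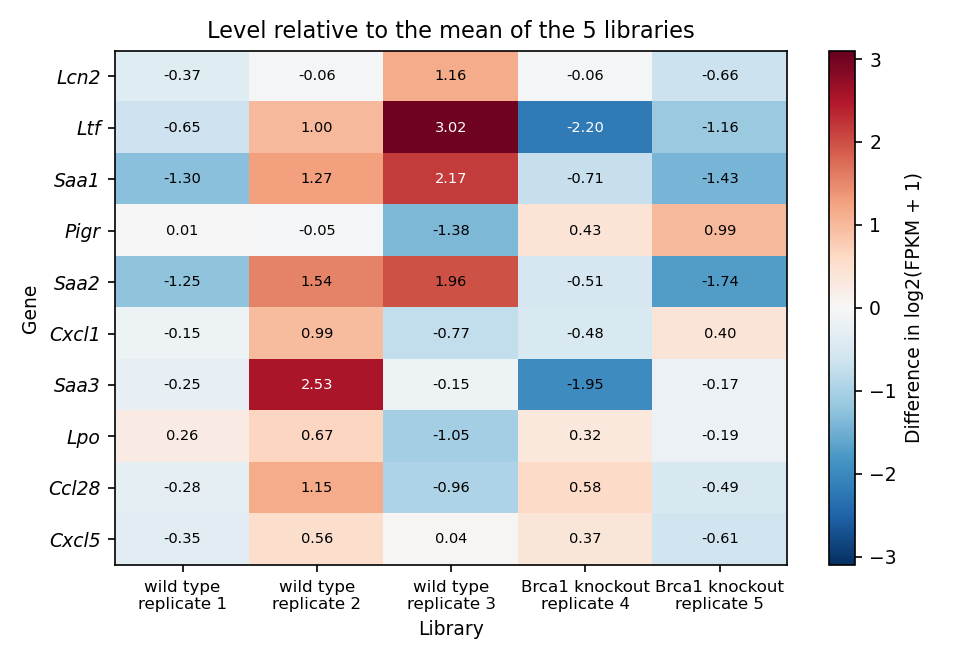
Level of each of the 10 genes in each library relative to the mean of that gene over the 5 libraries (difference in log2(FPKM + 1), red above and blue below the mean), rows ordered by mean level and columns by library. *Ltf*, *Saa1* and *Saa2* reach 3.02, 2.17 and 1.96 in wild type replicate 3, where *Pigr* is at -1.38, and *Saa3* reaches 2.53 in wild type replicate 2.

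Likeness of 2 genes was measured as the mean absolute difference between their centred log2 levels over the 5 libraries, as a description over 5 points that share their libraries. *Saa1* and *Saa2* were each other's nearest among the 10, at 0.20, and *Lpo* and *Ccl28* formed the other mutual pair, at 0.34. *Ltf* was nearest to *Saa1* at 0.70, *Saa3* to *Cxcl1* at 0.86 and *Pigr* to *Lpo* at 0.52. *Cxcl1* was nearest to *Lpo* at 0.48, *Cxcl5* to *Ccl28* at 0.40 and *Lcn2* to *Cxcl5* at 0.45, in the last 2 cases with small swings that lie near each other whatever their order. For the 3 genes with the largest SD of the log2 level (*Ltf*, *Saa2* and *Saa1*, the SD of *Saa3* being close behind at 1.60), the nearest of all 11481 genes were also found. Those of *Ltf* were *Mmp14*, a membrane-bound matrix protease, at 0.38, with *Gm13889* and *Folr2*, both at 0.40. *Mmp14* was at 4.80, 9.94 and 55.2 FPKM in the wild type replicates and at 2.26 and 2.69 FPKM in the knockout replicates. *Aqp1*, a water channel, was the nearest to both *Saa1* (0.061) and *Saa2* (0.14), nearer than either was to the other. It was at 0.293, 6.53 and 12.3 FPKM in the wild type replicates and at 1.05 and 0.0858 FPKM in the knockout replicates. *Ctse*, the protease cathepsin E, followed at 0.15 for *Saa1* and 0.24 for *Saa2*. Since a value of 1 is added before the logarithm, a low gene such as *Aqp1* swings less on this scale than its ratio of levels.

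The comparison by label asks whether the defence genes differ between the libraries labelled Brca1 knockout and wild type. No gene of the 10 passed the test, and no other gene did. The 9 genes that averaged 1 FPKM or more were tested among 11481 with limma, of which 0 had an adjusted p under 0.05 (0.0%), the smallest adjusted p being 0.92. At an unadjusted p under 0.05 there were 372 genes, 267 higher and 105 lower in the knockout-labelled libraries (2.33% and 0.915% of those tested), with 0 and 1 of the 9 defence genes among them. That split depended on the scaling, with 226 higher and 166 lower after median-of-ratios scaling and 214 higher and 141 lower after quantile scaling.

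The 1 gene was *Ltf*, whose log2 fold change (knockout minus wild type) was -2.80 with a standard error of 1.07 and a 95% interval from -5.50 to -0.098 (unadjusted p = 0.0446, adjusted p = 0.92, limma). Which gene lay under an unadjusted 0.05 depended on the setting: after median-of-ratios scaling *Ltf* had an unadjusted p of 0.0538 and *Pigr* of 0.0494, after quantile scaling *Pigr* joined *Ltf* (unadjusted p = 0.0454 and 0.0452), and with robust eBayes or no filter on low values *Ltf* had an unadjusted p of 0.0567 and 0.0615 (limma). The groups of *Ltf* did not overlap, as for 5.77% of all genes tested in that direction and for 1 of the 9. *Pigr* had the largest difference in the other direction, 1.19 with a standard error of 0.49 and a 95% interval from -0.050 to 2.42 (unadjusted p = 0.0570, adjusted p = 0.92, limma). Non-overlap in that direction was found for 17.5% of all genes tested and for 1 of the 9. The intervals of *Saa1* (-1.78, from -4.39 to 0.82), *Saa2* (-1.87, from -4.49 to 0.75) and *Saa3* (-1.77, from -4.33 to 0.80) reached from far below to somewhat above 0, each with an adjusted p of 0.92 (limma). *Lcn2* was at -0.61 (95% interval from -1.93 to 0.71, adjusted p = 0.92, limma). For *Lpo* (0.11, standard error 0.55), *Ccl28* (0.076, standard error 0.71) and *Cxcl1* (-0.061, standard error 0.58) the adjusted p was 0.99 (limma), and their 95% intervals still hold differences of more than 1 on the log2 scale either way. The median log2 fold change of all genes tested was 0.11, and it was 0.0087 after median-of-ratios scaling, 0.033 after quantile scaling and 0.031 without wild type replicate 3.

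By exact permutation of the labels, two-sided by the absolute difference over the 10 possible splits, no p can be smaller than 0.1. In this exact permutation test *Ltf* and *Pigr* gave p = 0.2, *Saa1* and *Saa2* gave p = 0.3, *Saa3* and *Lcn2* p = 0.5, *Cxcl5* p = 0.7, *Lpo* p = 0.9, and *Ccl28* and *Cxcl1* p = 1. The size of these differences depended on the wild type libraries kept. Without wild type replicate 3 the log2 fold change of *Ltf* was -1.85 (adjusted p = 0.71, limma). With wild type replicates 2 and 3 both left out, which leaves 1 wild type library that is assumed to vary like the knockout pair, *Ltf* was at -1.03 and *Pigr* at 0.70 on the log2 scale, *Saa3* was at -0.81, and *Saa1* and *Saa2* turned to 0.23 and 0.13. *Pigr*, *Saa1* and *Saa2* are also among the genes that the study listed as differing between these luminal libraries and tumors, and *Cxcl5* is among those it listed for tumors, so their levels here are not independent of those lists.

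**Figure D3:**
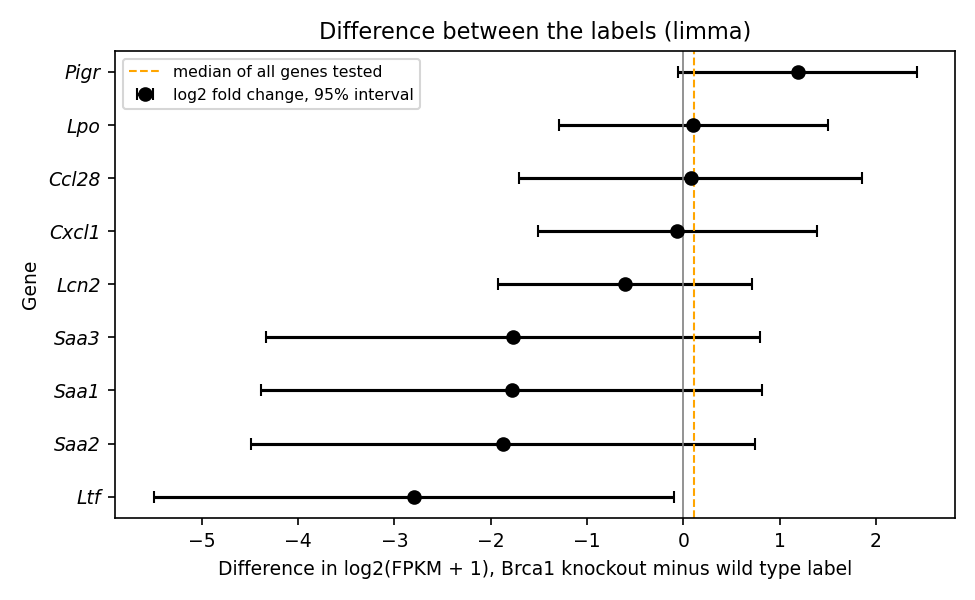
Difference in log2(FPKM + 1) between the Brca1 knockout and wild type labels for the 9 defence genes tested, from limma. Points are log2 fold changes, bars are 95% intervals, the solid line marks 0 and the dashed line the median of all genes tested (0.11). All intervals but that of *Ltf* (-5.50 to -0.098) include 0, and no gene had an adjusted p under 0.05.

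Markers of other cell types moved with several of these values. In bulk RNA fewer cells of a type and less RNA per cell cannot be told apart. The list of 9 macrophage markers summed to 7.25, 384 and 51.3 FPKM in the wild type replicates and to 4.70 and 10.6 FPKM in the knockout replicates, with 8 of 9 at 1 FPKM or more in wild type replicate 2. *Adgre1*, the defining F4/80 antigen, was listed at 0 FPKM in wild type replicate 1 and was at 5.64 FPKM in replicate 2. The 7 fibroblast markers summed to 3.05, 110 and 86.4 FPKM and to 3.86 and 12.7 FPKM in the same order. Both lists were highest in the 2 libraries in which *Saa1*, *Saa2* and *Ltf* were highest, and the macrophage list was highest in the library with the most *Saa3*, *Cxcl1*, *Cxcl5* and *Ccl28*. The luminal progenitor list had mean log2 levels of 6.03, 6.40 and 6.40 and of 6.09 and 5.95, over members that went opposite ways (*Elf5* was lowest and *Cd14* and *Aldh1a3* were highest in wild type replicate 3), while the mature luminal list was at 2.41, 1.90 and 5.91 and at 1.59 and 1.69. The basal markers had their lowest sum, 7.38 FPKM, in wild type replicate 3 and their highest, 129 FPKM, in wild type replicate 2, as did *Cxcl1*, *Lpo* and *Ccl28*. Endothelial markers reached a mean log2 level of at most 1.17, in wild type replicate 3. The 6 adipocyte markers were below 1 FPKM in every library, with sums between 0.0556 and 0.871 FPKM. The part of these cell types in the levels of the defence genes was not tested.

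**Figure D4:**
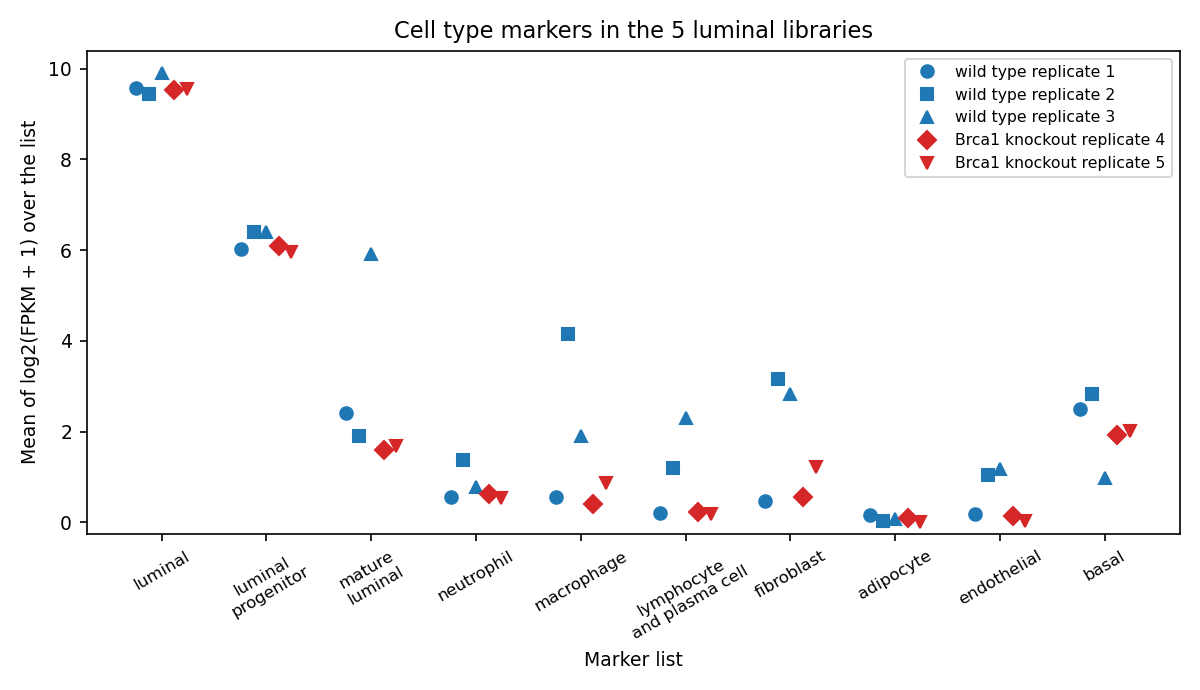
Mean log2(FPKM + 1) of 10 lists of cell type markers in each of the 5 libraries. Each symbol is 1 library, blue for the wild type label and red for the Brca1 knockout label. Wild type replicate 2 is highest for the macrophage list (4.15) and wild type replicate 3 for the mature luminal list (5.91), while the luminal list lies between 9.44 and 9.90 in all libraries.

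The wider pathway was read from 8 lists of 141 genes in all, of which 104 averaged 1 FPKM or more. In the comparison by label 0 of the 104 passed the test, 37 had a positive and 67 a negative log2 fold change, and their median was -0.19 beside 0.11 for all genes tested. At an unadjusted p under 0.05 there were 3 higher and 6 lower, where the shares over all genes tested were 2.33% and 0.915%. The groups did not overlap for 8 genes that were higher and 18 that were lower, beside 17.5% and 5.77% of all genes tested. Wild type replicate 3 was the highest library for 37 and wild type replicate 2 for 32 of the 104, beside 18.5% and 16.0% of all genes tested. Some of the 104 averaged 1 FPKM or more through a single library. *Fgb* was at 31.5 FPKM in wild type replicate 3 and at most 0.109 FPKM elsewhere. *S100a9* was at 6.14 FPKM in wild type replicate 2 and at most 0.280 FPKM elsewhere. For such genes the filter fixes the highest library and makes a negative log2 fold change likely. The same filter applied to all genes tested.

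Among the other secreted antimicrobial genes, 20 of 24 were tested, with 4 positive and 16 negative log2 fold changes and a median of -1.02. *Wfdc18*, which like the antiprotease *Slpi* belongs to the WAP domain family, was the only one above *Lcn2* in mean level. It was at 6524, 3862 and 1878 FPKM in the wild type replicates and at 6916 and 4610 FPKM in the knockout replicates, with its lowest value in the library where *Lcn2* was highest. *Mfge8*, a milk fat globule protein that marks dying cells for uptake, was at 2195 FPKM in wild type replicate 3 and between 506 and 638 FPKM elsewhere. *Clu*, the extracellular chaperone clusterin, ranged from 719 to 1113 FPKM. *Slpi* had the smallest unadjusted p of the list, 0.00892 (adjusted p = 0.92, limma), with 79.2, 116 and 202 FPKM in the wild type replicates and 36.0 and 41.5 FPKM in the knockout replicates. It was named after its values were seen. Like *Ltf* it was highest in wild type replicate 3. Its groups did not overlap, as for 5 of the 20 in that direction, beside 5.77% of all genes tested. *Cst3*, named for its p, was also lower in the knockout-labelled libraries at an unadjusted p of 0.0441 (adjusted p = 0.92, limma). These are 2 of the 20 under an unadjusted 0.05, beside 0.915% of all genes tested in that direction.

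Upstream of these genes stand receptors, NF-kB, cytokines and transcription factors. Of 23 pattern recognition and NF-kB genes, 22 were tested, with 17 positive and 5 negative log2 fold changes. Their median was 0.13, close to the 0.11 of all genes tested. *Nfkbia*, the inhibitor of NF-kB that is also its target, ranged from 313 to 619 FPKM, and *Nfkb2*, one of its subunits, from 55.4 to 88.7 FPKM. *Cd14*, the coreceptor for bacterial lipopolysaccharide and also a marker of luminal progenitors, was at 149, 350 and 387 FPKM in the wild type replicates and at 168 and 79.6 FPKM in the knockout replicates. *Cd14* was thus highest in wild type replicates 2 and 3 and lowest in knockout replicate 5, as were *Saa1* and *Saa2*. At an unadjusted p under 0.05, *Nfkbiz*, *Traf6* and *Tlr5* were higher in the knockout-labelled libraries, each with an adjusted p of 0.92 (limma), and were named for that p. These are 3 of the 22, beside 2.33% of all genes tested in that direction. Of 21 cytokine, STAT3 and C/EBP genes, 19 were tested, with 6 positive and 13 negative log2 fold changes and a median of -0.15. *Cebpb* ranged from 284 to 410 FPKM, *Cebpd* from 99.8 to 213 FPKM and *Stat3* from 122 to 156 FPKM. *Il17a* was listed at 0 FPKM in every library. *Il6* was at 0, 3.68 and 5.68 FPKM in the wild type replicates and at 0.336 and 0.344 FPKM in the knockout replicates. It was highest in wild type replicates 2 and 3, as were *Saa1* and *Saa2*, and was named after its values were seen. Wild type replicate 3 was the highest library for 10 of the 19 and wild type replicate 2 for 3, beside 18.5% and 16.0% of all genes tested. *Il1b*, at 12.6 FPKM in wild type replicate 2 and at most 1.03 FPKM elsewhere, was among the 19 only through that library. The part of these cytokines in the defence genes was not tested.

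The remaining lists were small. Of 20 other chemokine genes, 17 were tested, with 4 positive and 13 negative log2 fold changes and a median of -0.62, and *Ccl5*, *Cxcl12* and *Cxcl14* had an unadjusted p under 0.05 toward lower values in the knockout-labelled libraries (adjusted p = 0.92 for each, limma), for which they were named. These are 3 of the 17, beside 0.915% of all genes tested in that direction. The acute phase and complement list had 2 positive and 8 negative values with a median of -0.49, the IgA partners 1 and 3 with a median of -0.70, and the lactoperoxidase partners 1 and 5 with a median of -0.36. Of 12 receptors for the secreted proteins, 6 were tested, with 2 positive and 4 negative values and a median of -0.15. *Ackr1* was lower in the knockout-labelled libraries at an unadjusted p of 0.0416 (adjusted p = 0.92, limma), for which it was named. This is 1 of the 6, beside 0.915% of all genes tested in that direction. *Cd36*, a scavenger receptor for lipids that also binds serum amyloid A, was at 159, 87.2 and 5.94 FPKM in the wild type replicates and at 127 and 157 FPKM in the knockout replicates. Its lowest value, like that of *Pigr*, was in wild type replicate 3. *Scarb1*, a further receptor of serum amyloid A, was between 33.1 and 62.0 FPKM, and *Slc22a17*, a receptor for lipocalin 2, between 5.94 and 9.17 FPKM.

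**Figure D5:**
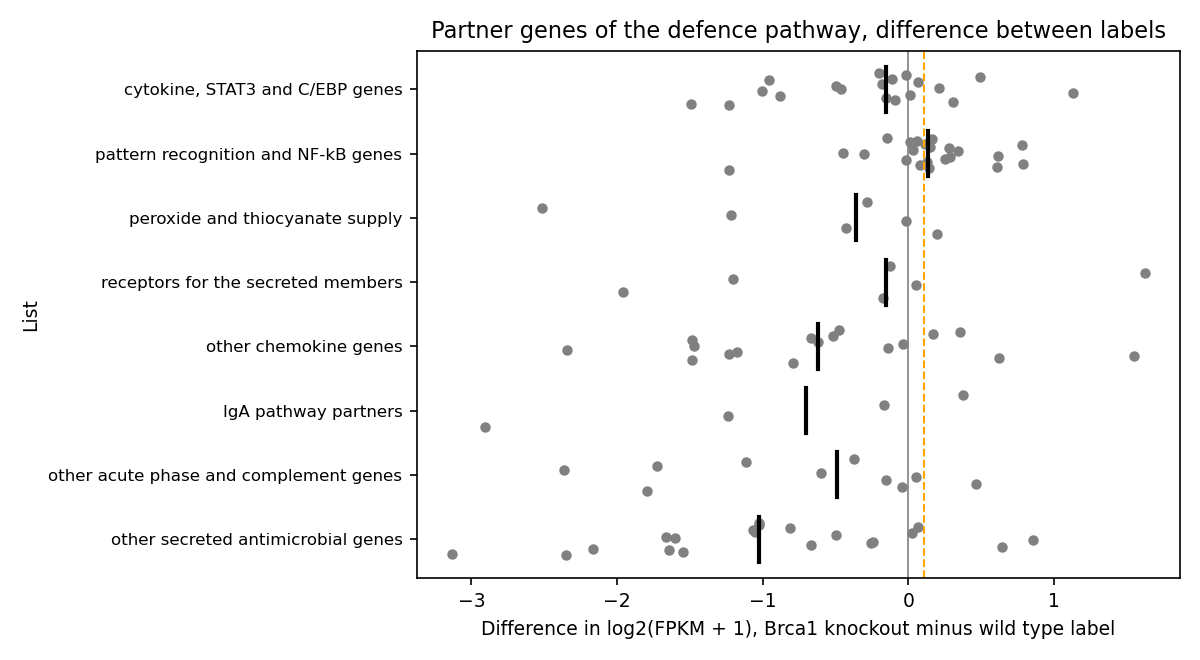
Difference in log2(FPKM + 1) between the Brca1 knockout and wild type labels for the 104 tested genes of 8 partner lists of the defence pathway. Each grey point is 1 gene, black bars are list medians, the solid line marks 0 and the dashed line the median of all genes tested (0.11). List medians run from -1.02 (other secreted antimicrobial genes) to 0.13 (pattern recognition and NF-kB genes), and 0 genes passed the test.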

How the data were processed

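The deposited table holds FPKM for 24346 rows and 5 libraries labelled as mouse mammary luminal cells. The authors made these FPKM values from paired reads, and the submitters' processing notes list Trimmomatic 0.35, TopHat2 2.0.13, Cufflinks 2.2.1 and mm10, while the paper's methods name another TopHat version. The annotation and the handling of reads that match several genes are not given in the sources used here. The kit named does not mark strand. A spreadsheet had made dates of the names in 27 rows, and without these 24319 genes remain.

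FPKM was analysed as log2(FPKM + 1), which understates fold changes of low genes. Labels were compared with limma 3.58.1 (lmFit, eBayes with trend) in R 4.3.3 over the 11481 genes that averaged 1 FPKM or more, with Benjamini-Hochberg adjustment and a threshold of 0.05, and single genes by an exact permutation test (two-sided). The fit was tested on simulated data with independent noise, smaller than the spread of genes such as *Ltf* here. That test therefore does not show how the fit performs on these libraries. The files hold no counts, so no count model was run. The spacing of low FPKM values times transcript length gave an estimate of depth, in 235 to 394 of 1679 genes per library with a single GENCODE M21 transcript over 2000 bases. Of these, 58.8% to 63.2% lay within 0.15 of a whole multiple, too few to recover reads. Chance would give 30% for a spacing fixed in advance. The spacing was chosen to fit these same values, so the shares cannot be set against that 30%. Coordinates are from GENCODE M21 (GRCm38, which is mm10), and promoters from RefSeq, where 9 of the 10 symbols matched.

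The 10 genes and all lists were chosen with earlier results of these data known. Named genes are the 10, the 3 of highest mean FPKM in each list (marker lists are mostly given as sums), the 3 nearest in pattern to the 3 genes of largest SD of the log2 level, and receptors, partners, paralogs or defining markers of the 10. *Hp*, *Il6*, *Fgb*, *Il1b* and the partner genes named for an unadjusted p were chosen after their values were seen. Alternatives were another pseudocount (0.1), 2 scalings, 2 filters, 2 limma priors, *Saa1* and *Saa2* added together, and each library left out. Leaving out wild type replicates 2 and 3 together was chosen after seeing the data. Python 3.11.15 with numpy 2.4.6, pandas 2.3.3 and matplotlib 3.10.9 was used.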

Additional observations from a re-analysis of the deposited data

Results flagged for a closer look

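Each of the 10 genes and 18 lists was checked for a library set apart from the other 4 (the gap to its nearest neighbour over 0.71 of the whole range, Dixon's 95% limit for 5 values). Chance sets apart about 1 in 20, or 1.4 of 28, and 4 were found, none of them among the 10 defence genes. The mean log2 level of the receptors for the secreted proteins was 2.05 in wild type replicate 2, the others lying between 1.505 and 1.62. The neutrophil markers were at 1.37 in wild type replicate 2 and between 0.54 and 0.78 elsewhere. The luminal markers were at 9.90 in wild type replicate 3 and between 9.44 and 9.57 elsewhere, and the mature luminal markers at 5.91 there and between 1.59 and 2.41 elsewhere.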

How the results depend on the processing

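No paired analysis was possible because the wild type and knockout labels share no replicate number. The count of genes past the threshold was 0 under every setting that kept all libraries, ran from 0 to 14 when 1 library was left out (14 and 4 higher without knockout replicates 4 and 5, where the lone knockout library is assumed to vary like the others, 2 lower without wild type replicate 1), and was 3 without wild type replicates 2 and 3, where the lone wild type library is assumed to vary like the knockout pair. No defence gene or list gene passed under any setting. With 1 library left out, the log2 fold change ran from -3.69 to -1.85 for *Ltf* (lowest without wild type replicate 1), from -2.79 to -1.05 for *Saa1*, from -2.87 to -1.26 for *Saa2*, from -2.66 to -0.86 for *Saa3*, from -0.91 to -0.15 for *Lcn2* and from 0.73 to 1.47 for *Pigr*, all keeping their sign. Over these 5 fits the adjusted p of *Ltf* lay between 0.56 and 1.00 (limma). The log2 fold change turned sign for *Lpo* (-0.40 to 0.46), *Ccl28* (-0.46 to 0.67) and *Cxcl1* (-0.50 to 0.42). Without wild type replicates 2 and 3 it turned for *Lcn2* (0.0020), *Lpo* (-0.20), *Saa1* (0.23), *Saa2* (0.13) and *Cxcl1* (0.11). The cause was not tested. The pseudocount, scalings, filters, priors and the sum of *Saa1* and *Saa2* (-1.83) turned no sign. With no filter on low values 710 genes had an unadjusted p under 0.05. Low estimated fragment numbers limit *Cxcl5*, *Ccl28*, *Lpo* and, in knockout replicate 4, *Saa3*, and 3 libraries against 2 limit every comparison by label.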
